A study of Mus musculus with 10 samples.

Results

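Interferon-stimulated genes were followed in spontaneous mouse lymphomas. The list held 32 genes, represented by 51 of the 41174 non-control probes of a 1-colour Agilent mouse array, and every probe that the array annotation names for one of these genes was taken. All 32 genes had a probe well above background on all 10 arrays and all 32 entered the comparison, out of 17782 genes and unnamed transcripts tested. Of the 51 probes, 48 were kept, and 14 genes had several probes.

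The series compared lymphomas of mice heterozygous for the LIP allele of C/EBPb (+/L, 5 tumours) with lymphomas of wild-type mice (+/+, 5 tumours). C/EBPb is a transcription factor of the CCAAT/enhancer-binding protein family, and LIP is its short isoform, which lacks most of the activation domain. Each tumour came from a different mouse, was palpable when the animal was killed, and arose spontaneously. The +/L mice were 11 to 21 months old, 4 labelled female and 1 male, and the +/+ mice were 20 to 29 months old, 3 labelled female and 2 male, so that the wild-type group was the older one. Strain, lymphoma type and normal tissue are not given in the sources used here, and tumours are named by genotype and mouse number.

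Type I interferons signal through the receptor IFNAR and the kinases JAK1 and TYK2 to a complex that holds STAT2 and IRF9 and binds the interferon-stimulated response element (ISRE). Interferon gamma signals through its own receptor to the gamma-activated site (GAS) of its target genes and induces IRF1, itself a transcription factor for interferon-stimulated genes. IRF7, induced by interferon, drives further production of type I interferon, and lymphocytes, myeloid cells and most other cells of a lymphoid tumour can respond.

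The sequences below show the DNA letters that these factors are known to read, at members whose values are described further on. RefSeq promoters (GRCm38.p6, 250 bases before the annotated start) are printed 5′ to 3′ on the strand of the gene. Capitals mark matches to the ISRE core, which is GAAA, any 2 bases and GAAA again, searched on both strands (on the opposite strand TTTC, any 2 bases, TTTC), and to the GAS core TTCNNNGAA, which reads alike on both strands. Isg15 and Oas1a are shown for runs of overlapping ISRE cores, Ifit3 for cores on the opposite strand, Irf1 for a GAS core with no ISRE core, and Igtp for both kinds side by side.
Isg15 promoter, chr4:156200819-156201068, minus strand: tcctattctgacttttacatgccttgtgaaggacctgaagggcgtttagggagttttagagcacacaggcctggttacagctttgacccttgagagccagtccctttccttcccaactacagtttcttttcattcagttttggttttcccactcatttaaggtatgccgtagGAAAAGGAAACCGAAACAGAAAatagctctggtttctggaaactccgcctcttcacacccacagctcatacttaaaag
Oas1a promoter, chr5:120907526-120907775, minus strand: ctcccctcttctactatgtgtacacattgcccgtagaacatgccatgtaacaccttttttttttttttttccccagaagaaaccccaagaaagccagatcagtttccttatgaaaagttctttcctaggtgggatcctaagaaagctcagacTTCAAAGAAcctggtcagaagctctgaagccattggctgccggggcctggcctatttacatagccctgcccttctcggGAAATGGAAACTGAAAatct
Ifit3 promoter, chr19:34583279-34583528, plus strand: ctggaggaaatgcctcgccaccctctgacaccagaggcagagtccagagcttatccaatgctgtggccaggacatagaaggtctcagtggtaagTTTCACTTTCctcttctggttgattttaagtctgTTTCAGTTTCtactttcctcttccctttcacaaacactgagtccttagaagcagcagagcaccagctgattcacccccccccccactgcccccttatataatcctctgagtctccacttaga
Irf1 promoter, chr11:53769764-53770013, plus strand: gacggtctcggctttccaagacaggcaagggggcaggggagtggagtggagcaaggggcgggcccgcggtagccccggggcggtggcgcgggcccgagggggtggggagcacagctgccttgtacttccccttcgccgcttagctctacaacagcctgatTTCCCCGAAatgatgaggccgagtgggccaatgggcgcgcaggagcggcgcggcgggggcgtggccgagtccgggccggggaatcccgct
Igtp promoter, chr11:58199306-58199555, plus strand: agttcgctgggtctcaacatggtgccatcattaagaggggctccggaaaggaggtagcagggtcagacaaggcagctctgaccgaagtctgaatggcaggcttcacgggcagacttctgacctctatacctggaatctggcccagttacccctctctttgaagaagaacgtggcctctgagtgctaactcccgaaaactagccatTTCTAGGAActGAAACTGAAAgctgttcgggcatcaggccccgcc

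A promoter window of 300 bases, 250 before and 50 after the annotated start, was listed for 24 of the 32 members. The ISRE core occurred in 15 of these 24 genes, and in 3.99% of all 27025 genes with a window (3.44% of 32851 windows). The GAS core occurred in 6 of the 24, and in 9.55% of all genes. Both motifs were found at Bst2, Eif2ak2, Igtp and Oas1a, and neither was found in the windows of Irf7, Irf9, Oasl1, Oasl2, Ifi44, Trim25 or Xaf1. A match is a description of these letters and not a site of binding. At Isg15 the 3 ISRE cores begin 78, 72 and 66 bases before the start and overlap one another. The 2 cores of Oas1a, at 20 and 14 bases before the start, overlap as well, and the GAS core of Irf1 begins 90 bases before it. Members with an ISRE core had a median difference between genotypes of -0.35 on the log2 scale and those with a window but no core had -0.51, as a description with no test.

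**Figure D1:**
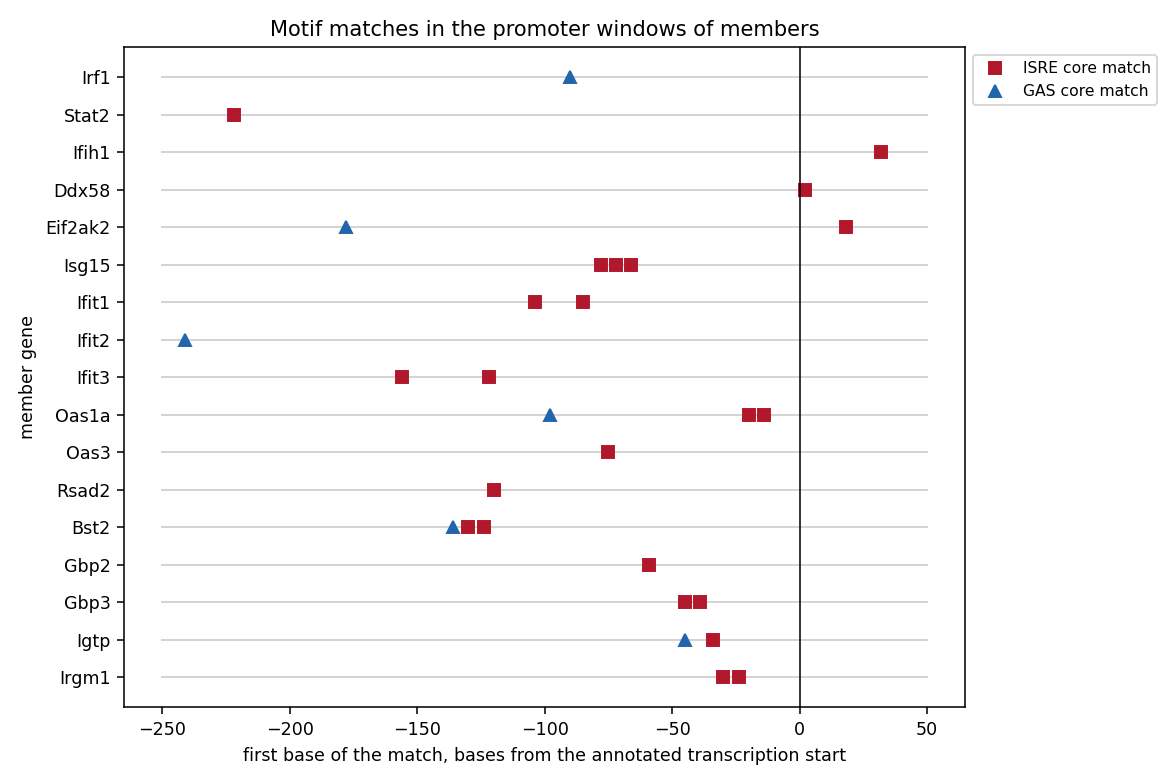
Position of ISRE core (squares) and GAS core (triangles) matches in the RefSeq promoter windows of the 17 members with at least 1 match; the x axis is the first base of a match in bases from the annotated start (0) and each grey line is a window. The ISRE cores of Ddx58, Eif2ak2 and Ifih1 lie after the start, those of the other 12 genes before it, with that of Stat2 the farthest away at 222 bases.

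Levels are given as log2 processed signal relative to each array's 75th percentile, which is 0, so that 1 unit is a doubling. The 75th percentile of the raw processed signal ran from 199 to 651 over the arrays, and 48.0% to 66.7% of spots were well above background. All 8 B-cell and all 9 T-cell markers looked at, Cd79b and Cd3d among them, were well above background on all 10 arrays. Their levels differed between tumours, as the marker scores further on show. On 2 arrays, those of +/L mouse 20 and +/+ mouse 11, the sex-linked transcripts went against the label: both are labelled male, had Xist at 2.17 and 3.44, and had 0 of 3 Y-linked genes well above background. Slides 1, 2 and 3 of the file headers are groups of arrays with the same barcode entry there. Slide 3 (mice 866, 101 and 19) appears to hold the arrays whose entry gives no barcode. That these share a slide is therefore not established, which limits every value given by header slide. For mice 866 and 17 this grouping differed from that in the description label. Counts of members and several differences are also given without these arrays. With 5 arrays a genotype, precision is limited throughout.

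Averaged over the 10 tumours, 27 of the 32 probes lay above the array's 75th percentile, each being the brightest kept probe of its gene. Other kept probes of a gene were dimmer, as at Ddx58, with -1.98, -4.75 and -1.32 beside 0.52. The share of all genes above this level was not computed. Between its lowest and its highest tumour a member typically differed by several-fold. The median range over the 10 tumours was 1.88 log2 units, close to the 1.80 of all genes tested, and the median SD was 0.62 against 0.56. Oas2 had the widest range, 3.74 log2 units or 13.4-fold, and Bst2 the narrowest, 0.67 units or 1.59-fold. Since these are bulk tumours, fewer cells of a responding type and less RNA per cell cannot be told apart.

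**Figure D2:**
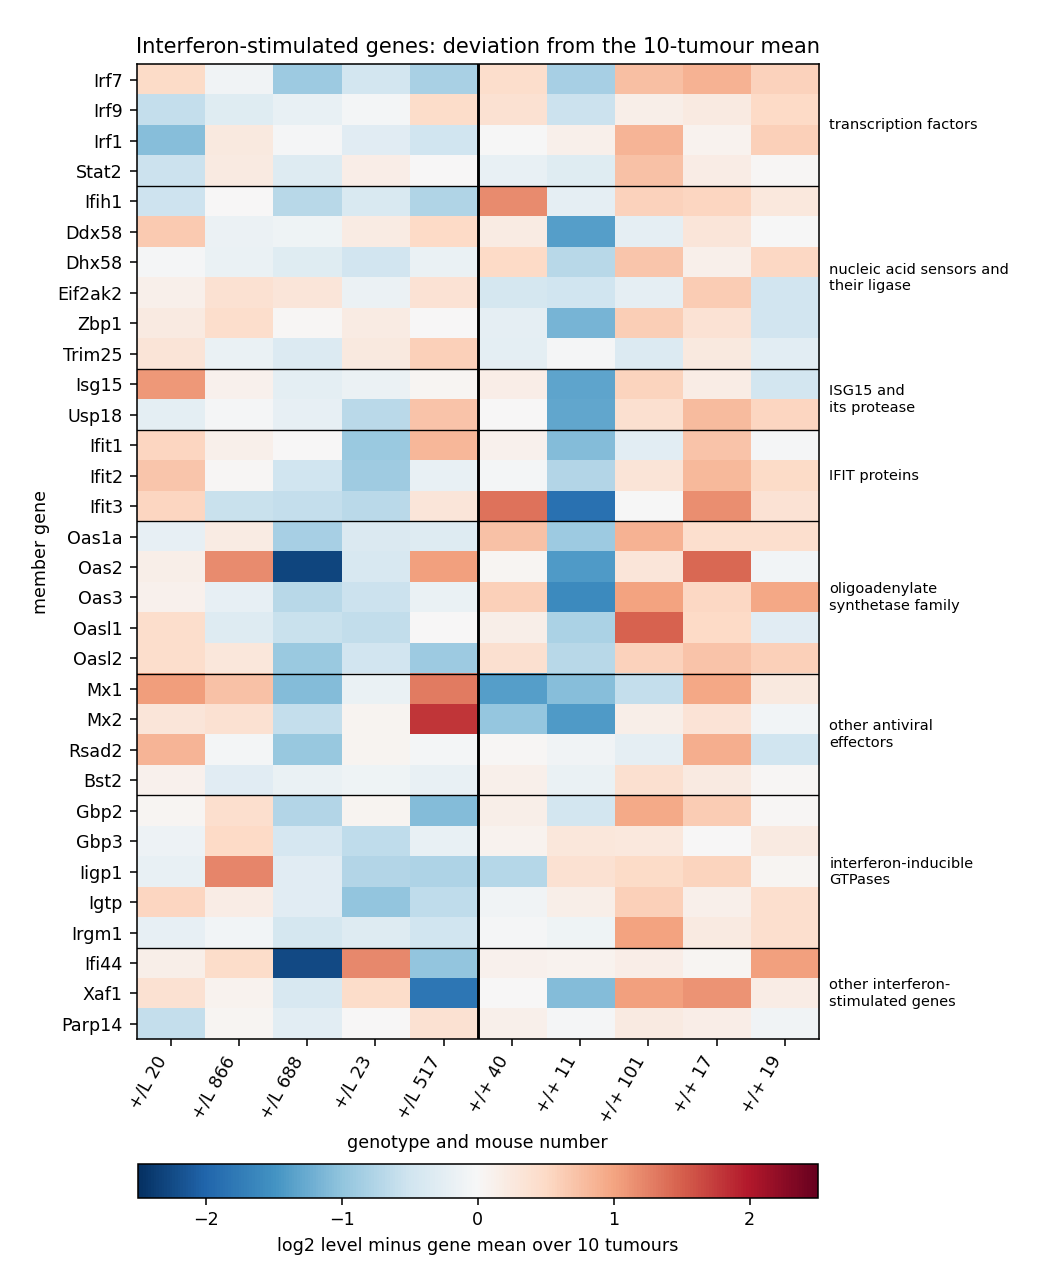
Log2 level of each of the 32 members (rows, by role) minus its mean over the 10 tumours, in the 5 +/L and 5 +/+ tumours (columns); blue is below and red above the gene's mean. The columns of +/L mouse 688 and +/+ mouse 11 are mostly blue, with 3 and 5 of 32 members above their mean, and that of +/+ mouse 17 has all 32 above it.

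Between the genotypes no member passed. In limma, 0 of 32 members had an adjusted p under 0.05, as did 0 of 17782 genes (0%), and the members' adjusted p lay between 0.54 and 0.97. An unadjusted p under 0.05 was reached by 3 of 32 members, Ifih1, Irgm1 and Irf1, each lower in +/L, which set against 8.58% of all genes (5.44% lower and 3.14% higher in +/L) is a share near the background. The mean was lower in +/L for 24 members and higher for 8, where 51.9% of all genes were lower. The median difference (+/L minus +/+) was -0.32 over the members and -0.02 over all genes. In 0 of 32 members did the 5 values of one genotype lie wholly apart from those of the other, against 1.8% of all genes. The median difference was -0.64 with age as a covariate, -0.50 without +/+ mouse 11, -0.21 without +/+ mouse 17, -0.19 on quantile-normalised values and -0.01 with the slide of the description labels as a block. Without +/+ mouse 11, 9 members had an unadjusted p under 0.05, as did 1514 of all 17782 genes. Without mice 20 and 11 that count was 10, beside 2522 of all genes, and without mice 866 and 17 it was 5, beside 1276. With all tumours 1525 of all genes had such a p. In each of these fits 0 members passed the adjusted threshold. Leaving out +/+ mouse 11 moved the difference of 16 members by more than 1.5 times, in 12 of them to a larger size, and leaving out any other single tumour moved 2 to 10 members that far.

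**Figure D3:**
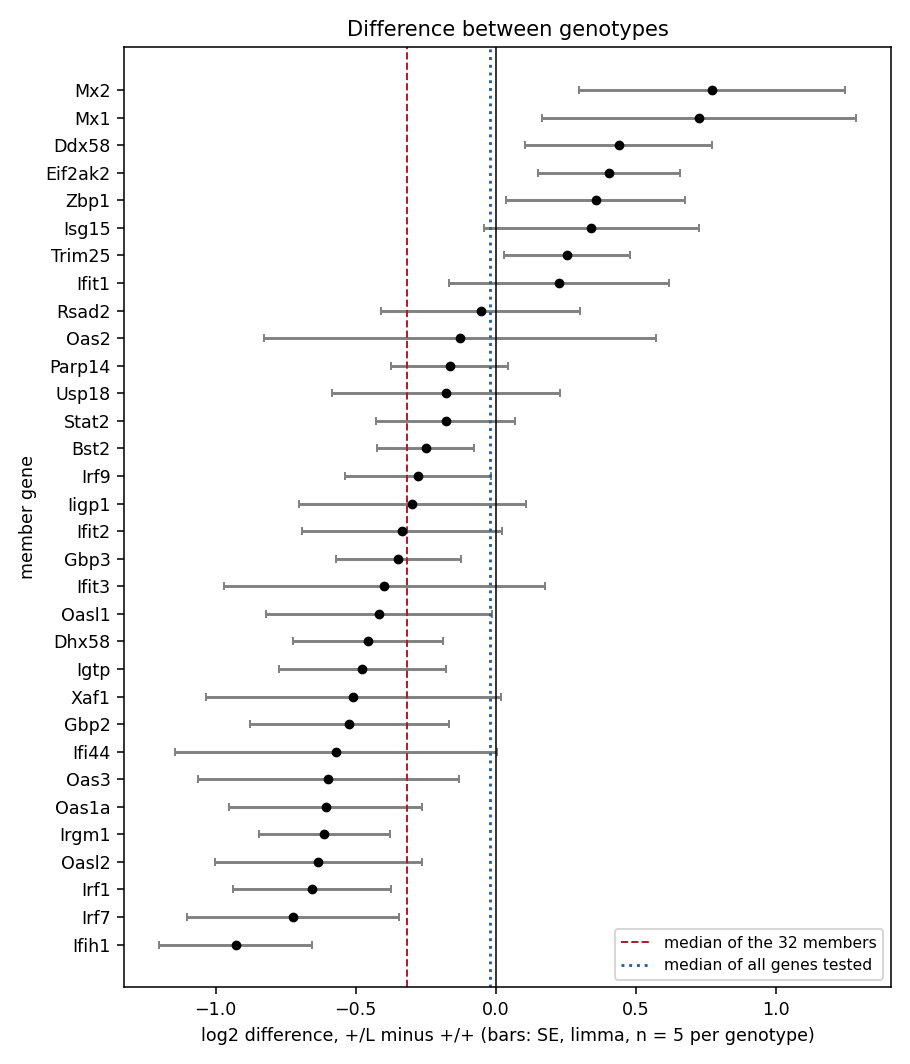
Difference between genotypes for each member (log2, +/L minus +/+; points are means of 5 against 5 tumours and bars are limma standard errors), with the median of the 32 members (dashed, -0.32) and of all genes tested (dotted, -0.02). The points run from -0.93 at Ifih1 to 0.77 at Mx2.

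The list held 4 transcription factors of the pathway, and all 4 had a lower mean in +/L. Irf7, the factor that amplifies type I interferon production, read 3.29, 2.73, 1.90, 2.37 and 2.0 in +/L mice 20, 866, 688, 23 and 517. In +/+ mice 40, 11, 101, 17 and 19 it read 3.25, 1.99, 3.57, 3.69 and 3.40. The groups overlapped: +/+ mouse 11 sat at the level of the lowest +/L tumours, and +/L mouse 20 among the other +/+ tumours. The group levels were 2.46 ± 0.57 in +/L and 3.18 ± 0.69 in +/+ (SD, n = 5 each), a difference of -0.72 ± 0.38 (SE, limma adjusted p = 0.63). Within slides 1, 2 and 3 of the file headers it was -0.87, 0.19 and -0.76. Without mice 20 and 11 the Irf7 difference was -1.23 (limma adjusted p = 0.20), and without mice 866 and 17 it was -0.66.

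Irf1, the factor induced by interferon gamma through a GAS, read 4.95, 6.25, 5.99, 5.74 and 5.52 in the +/L tumours of mice 20, 866, 688, 23 and 517. It read 6.0, 6.15, 6.86, 6.10 and 6.60 in the +/+ tumours of mice 40, 11, 101, 17 and 19. Tumour 20 was the lowest and tumour 101 the highest, and only +/L mouse 866 lay inside the range of the +/+ tumours. The difference was -0.66 ± 0.28 (SE; 5.69 ± 0.50 against 6.34 ± 0.37, SD, n = 5 each; limma adjusted p = 0.57), a 1.58-fold lower level in +/L. It was -0.58, -0.52 and -0.48 within the 3 slides and -0.47 without +/L mouse 20. A second Irf1 probe differed by -0.63 (limma unadjusted p = 0.024, adjusted 0.60), while on the deposited value table the first probe differed by -0.29.

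Irf9, the DNA-binding partner of STAT2, read 1.71, 1.99, 2.11, 2.25 and 2.75 in +/L mice 20, 866, 688, 23 and 517. It read 2.69, 1.76, 2.44, 2.52 and 2.80 in +/+ mice 40, 11, 101, 17 and 19. The ranges nearly coincided, with +/L mouse 20 and +/+ mouse 11 lowest in their groups, and the difference was -0.28 (limma adjusted p = 0.79). The 2 Irf9 probes barely followed each other over the 10 tumours (r = 0.11), so the level of this gene rests on 1 probe. Stat2, the STAT of the type I pathway, read 1.88, 2.65, 2.10, 2.57 and 2.43 in those +/L mice and 2.24, 2.11, 3.15, 2.60 and 2.44 in those +/+ mice. Its highest value was that of +/+ mouse 101, and the groups differed by -0.18 (limma adjusted p = 0.87).

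Probes are printed for the factor with the widest co-variation among the members and for the second reading of the factor with the lowest p among the 4. Both sequences are 60 bases long, are given as the array files hold them with mm9 coordinates, and cover more genome than their own length, as probes across an exon junction do.
Irf7 probe A_51_P421876, chr7:148450664-148451014, minus strand: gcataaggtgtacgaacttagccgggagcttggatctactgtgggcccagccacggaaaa
Irf1 probe A_52_P175685, chr11:53587446-53587591, plus strand: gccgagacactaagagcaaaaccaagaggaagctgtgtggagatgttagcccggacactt

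**Figure D4:**
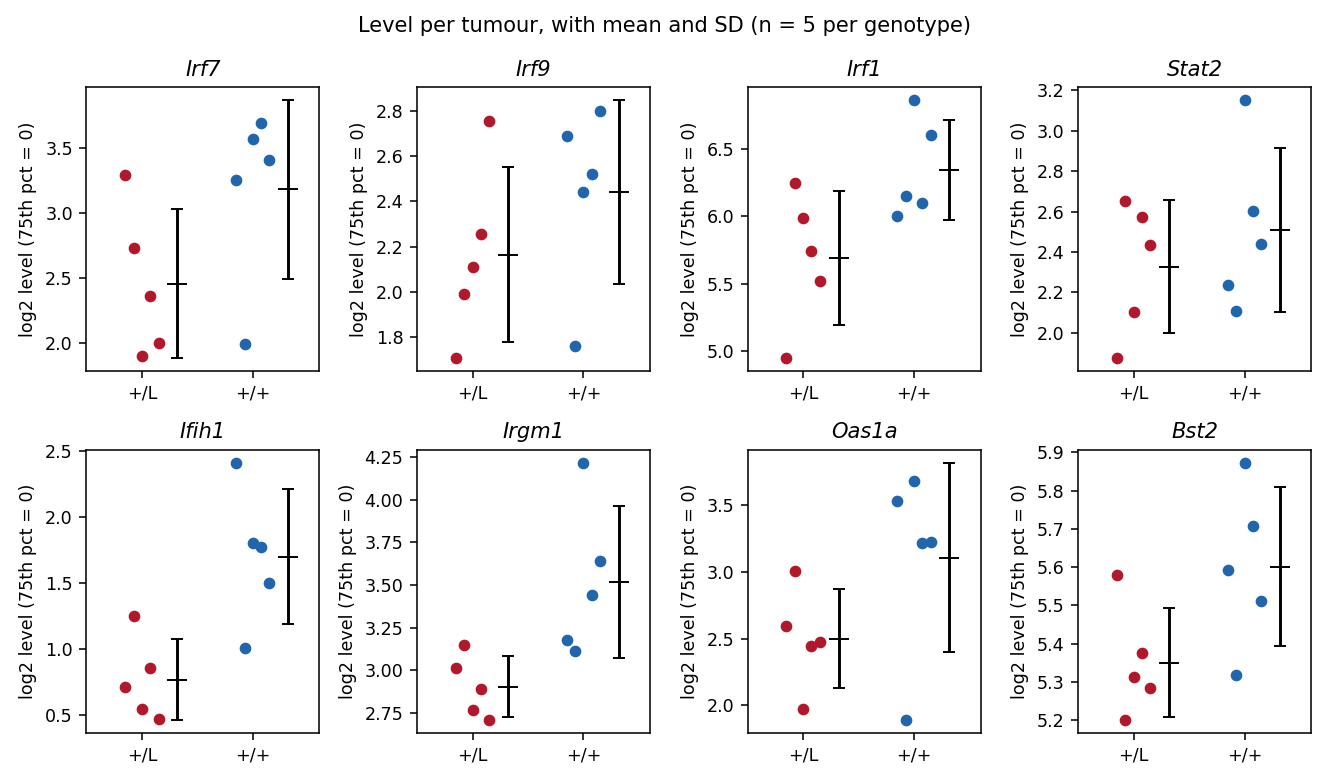
Log2 level relative to the array's 75th percentile (75th pct = 0) of 8 members in each of the 10 tumours, +/L in red and +/+ in blue, with the mean and SD of each genotype beside the points. In Irf7 and Oas1a 1 +/+ tumour, mouse 11, lies far below the other +/+ tumours, and in all 8 genes the groups overlap.

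Nucleic acid sensors did not share a direction. Ifih1 encodes MDA5, a sensor of long double-stranded RNA (probe at chr2:62435621-62435680, mm9, minus strand). In +/L mice 20, 866, 688, 23 and 517 it read 0.72, 1.25, 0.54, 0.86 and 0.47, and in +/+ mice 40, 11, 101, 17 and 19 it read 2.41, 1.01, 1.80, 1.77 and 1.5. Only +/L mouse 866 and +/+ mouse 11 overlapped, the former above the latter. The difference of -0.93 ± 0.27 (SE, 1.9-fold lower in +/L) was the member difference with the lowest p (unadjusted 0.0065, limma adjusted p = 0.54, exact two-sided permutation p = 0.016), and it was -1.46, -0.34 and -0.40 within the slides. It was -1.09 without mice 20 and 11 and -1.03 without mice 866 and 17. A second Ifih1 probe, well above background on 3 arrays, differed by -0.25. Dhx58, which encodes LGP2, a regulator of MDA5 and RIG-I signalling, differed by -0.46 (limma adjusted p = 0.65), and by -0.69 without +/+ mouse 11.

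The other 4 genes of this group had higher means in +/L. Ddx58, which encodes the RNA sensor RIG-I, differed by 0.44, though its 4 probes gave 0.44, 0.15, 0.14 and -0.28. Eif2ak2, the kinase PKR that stops translation on double-stranded RNA, differed by 0.40, and Zbp1, a sensor of Z-form nucleic acids, by 0.36. Trim25, the ubiquitin ligase that activates RIG-I, read 3.51 ± 0.38 in +/L and 3.25 ± 0.23 in +/+ (SD, n = 5 each; difference 0.26, limma adjusted p = 0.77). Its range of 0.93 was among the 3 smallest of the members, with +/L mouse 517 highest at 3.97 and +/L mouse 688 lowest at 3.04. With age as a covariate Eif2ak2 differed by -0.02 and Zbp1 by -0.06, so the sign of both depended on that choice. Without +/+ mouse 11 Ddx58 differed by 0.15 and Zbp1 by 0.11.

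ISG15 and its protease pointed in different directions. Isg15, the ubiquitin-like protein attached to other proteins after interferon, read 3.38, 2.4, 2.06, 2.15 and 2.34 in +/L mice 20, 866, 688, 23 and 517. The +/+ values in mice 40, 11, 101, 17 and 19 were 2.47, 0.98, 2.86, 2.48 and 1.84. The highest value was that of +/L mouse 20 and the lowest that of +/+ mouse 11, the arrays with a sex mismatch. With both mice the difference was 0.34 (limma adjusted p = 0.83), and without them it was -0.17. Usp18, which removes ISG15 and also restrains the type I receptor, differed by -0.18 (limma adjusted p = 0.92). Without +/+ mouse 11, which read 0.72, it differed by -0.53, and without +/+ mouse 17 by -0.0002. The probes of Isg15, Usp18 and Mx2 are also listed for a second RefSeq record, so their signal may include that transcript. Whether that record belongs to the same gene or to another was not checked.

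Among the IFIT genes, whose proteins bind foreign RNA lacking host cap marks, the 5 +/L tumours spanned less than the +/+ tumours at Ifit3. Ifit3 read 2.78, 1.68, 1.64, 1.56 and 2.53 in +/L mice 20, 866, 688, 23 and 517 and 3.59, 0.36, 2.22, 3.40 and 2.60 in +/+ mice 40, 11, 101, 17 and 19. The +/+ tumours held both the highest and the lowest value, and the range over all tumours was 3.23 units or 9.39-fold. The genotype difference of -0.40 ± 0.57 (SE) was smaller than its error (limma adjusted p = 0.87) and rested on single +/+ tumours. It was -0.92 without mouse 11 (limma unadjusted p = 0.041, adjusted 0.57), -0.16 without mouse 17 and -0.11 without mouse 40. Without mice 20 and 11 it was -1.10, and without mice 866 and 17 -0.07. Ifit2 differed by -0.34, with a second probe at 0.29, and Ifit1 by 0.22. Without +/+ mouse 11 Ifit2 differed by -0.56 and Ifit1 by -0.02.

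All 5 members of the oligoadenylate synthetase family, enzymes and relatives that activate RNA decay by RNase L or bind RNA, had a lower mean in +/L, with differences from -0.63 to -0.13. Oas1a (probe at chr5:121348348-121348407, mm9, minus strand) read 2.59, 3.0, 1.97, 2.45 and 2.48 in +/L mice 20, 866, 688, 23 and 517. Its +/+ values were 3.53, 1.89, 3.68, 3.21 and 3.23 in mice 40, 11, 101, 17 and 19. Apart from +/+ mouse 11, which was the lowest of all, every +/+ tumour lay above every +/L tumour. The difference was -0.61 ± 0.35 (SE, limma adjusted p = 0.65) and, within the slides, -1.09, 0.57 and -0.45, slide 2 being the one whose only +/+ array is that of mouse 11. Without mouse 11 it was -0.91 (limma unadjusted p = 0.0041, adjusted 0.54), without mice 20 and 11 -0.94, and without mice 866 and 17 -0.71. As mouse 11 held the lowest value, leaving it out can only enlarge this difference. With age as a covariate it was -1.08.

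Oas2 read 0.51, 1.55, -1.94, -0.03 and 1.39 in +/L mice 20, 866, 688, 23 and 517, and 0.40, -1.05, 0.67, 1.80 and 0.29 in +/+ mice 40, 11, 101, 17 and 19. Mouse 688 was lowest and mouse 17 highest, and the groups overlapped over most of their range. The difference of -0.13 ± 0.70 (SE, limma adjusted p = 0.97) changed sign in 5 alternatives, among them the fit without +/L mouse 688 (0.43). Oas3 differed by -0.60, with a second probe at -0.73, and by -1.07 without +/+ mouse 11 (limma unadjusted p = 0.0011, adjusted 0.54). Oasl2 differed by -0.63, and by -1.08 without mice 20 and 11. Oasl1 differed by -0.42, by -0.67 without +/+ mouse 11 and by -0.10 without +/+ mouse 101. With the slide of the description labels as a block Oas3 differed by 0.13 and Oasl1 by 0.08.

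Antiviral effectors outside these families included both members with the largest higher means in +/L. Mx2, a dynamin-like GTPase, read 0.11, 0.19, -0.78, -0.13 and 1.59 in +/L mice 20, 866, 688, 23 and 517 and -1.15, -1.60, -0.04, 0.16 and -0.25 in +/+ mice 40, 11, 101, 17 and 19. Tumour 517 stood above all others, and the remaining values overlapped. The difference was 0.77 ± 0.48 (SE, limma adjusted p = 0.67), of which slide 2, holding +/L mice 23 and 517 and +/+ mouse 11, gave 2.33 and the others 0.16 and 0.34. Without +/L mouse 517 it was 0.42, without mice 20 and 11 0.54, and without mice 866 and 17 0.96. Over all alternatives it lay between 0.39 and 1.62. Mx1, its paralogue, differed by 0.73, but its second probe by -0.005. Rsad2, which encodes viperin, differed by -0.05 and changed sign when its probes were averaged (0.12).

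Bst2, or tetherin, which holds budding virions at the cell surface, was among the 3 members with the smallest range and had 1 of the 2 brightest probes. It read 5.58, 5.20, 5.31, 5.37 and 5.29 in +/L mice 20, 866, 688, 23 and 517 and 5.59, 5.32, 5.87, 5.71 and 5.51 in +/+ mice 40, 11, 101, 17 and 19. The +/+ tumours were the higher ones apart from mouse 11, and +/L mouse 20 lay among them. The difference was -0.25 ± 0.17 (SE, limma adjusted p = 0.70), and on the deposited value table it was 0.005.

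Interferon-inducible GTPases, which attack the vacuoles of intracellular pathogens, all had lower means in +/L, by 0.30 to 0.61 log2 units. Irgm1 (probe at chr11:48679069-48679128, mm9, minus strand) regulates the other members of its family. It read 3.01, 3.15, 2.77, 2.89 and 2.71 in +/L mice 20, 866, 688, 23 and 517 and 3.18, 3.11, 4.22, 3.44 and 3.64 in +/+ mice 40, 11, 101, 17 and 19. The groups met only at +/L mouse 866 and +/+ mouse 11, and +/+ mouse 101 stood highest. The difference was -0.61 ± 0.24 (SE, 1.53-fold lower in +/L; limma adjusted p = 0.56, exact two-sided permutation p = 0.016). It was -0.42, -0.31 and -0.78 within the slides, and a second probe gave -0.71. Without mice 20 and 11 it was -0.74, and without mice 866 and 17 -0.69.

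Igtp, also called Irgm3, carried the GAS and ISRE cores printed above. It read 5.74, 5.37, 4.91, 4.21 and 4.56 in +/L mice 20, 866, 688, 23 and 517 and 5.10, 5.33, 5.79, 5.33 and 5.62 in +/+ mice 40, 11, 101, 17 and 19. The +/L tumours 688, 23 and 517 lay below all +/+ tumours and the other 2 did not. The difference was -0.48 ± 0.30 (SE, limma adjusted p = 0.67). Gbp2 and Gbp3, guanylate-binding proteins, differed by -0.52 and -0.35 and Iigp1, an immunity-related GTPase, by -0.30 (limma adjusted p from 0.68 to 0.86).

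Of the 3 remaining members, Ifi44 had the second-widest range, 3.46 log2 units. It read 0.81, 1.11, -1.60, 1.87 and -0.33 in +/L mice 20, 866, 688, 23 and 517, whereas 4 of the 5 +/+ tumours lay between 0.70 and 0.83 and mouse 19 was at 1.69. The +/L tumours thus held both extremes, and the means differed by -0.57 ± 0.58 (SE, limma adjusted p = 0.81). Without +/L mouse 688 the Ifi44 difference was -0.08. Xaf1, a pro-apoptotic gene, differed by -0.51, by -0.84 without +/+ mouse 11 and by -0.12 without +/L mouse 517. Parp14, an ADP-ribosyltransferase, read 4.25 ± 0.37 in +/L and 4.41 ± 0.13 in +/+ (SD, n = 5 each), a difference of -0.16 that was 0.03 on quantile-normalised values. Over the tumours its brightest probe had r = 0.73 with a second probe and 0.08 with the dimmest one.

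Pairs of members were mostly positively correlated across tumours. Over the 496 pairs of members, the median Pearson r across the 10 tumours was 0.36, and 82.7% of pairs had a positive r, while the pairs of all genes had a median of 0.004 and 50.3% positive. An r above 0.75 was found in 6.85% of member pairs and 2.74% of all pairs. All pairs share the same 10 arrays and their scaling, so these are descriptions. The median r was 0.29 without +/+ mouse 11 and 0.32 without +/L mouse 688. Pairs within the IFIT genes had a median r of 0.72, within the oligoadenylate synthetase family 0.67 and within the GTPases 0.60, while the GTPases and the other members had 0.22. The pair of Isg15 and Usp18 had 0.47, and pairs within the other 4 roles had medians of 0.36 (transcription factors), 0.35 (sensors), 0.30 (other antiviral effectors) and 0.06 (the remaining 3 genes). Irf7, Oas3 and Oas1a followed the mean of the other members most closely (r = 0.88, 0.86 and 0.86), and Trim25, Irf1 and Parp14 least (0.03, 0.17 and 0.22).

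Correlations with Irf7 and with Irf1 were computed for 61 relations in all. For Irf7, 28 of the other 31 members had a positive r, against 55.5% of all genes, and 8 had an r above 0.75, against 1.24% of all genes. Oasl2 followed Irf7 more closely than any other of the 17781 genes (r = 0.98, permutation p = 1e-05, the smallest that 100000 permutations can give, adjusted over the 61 relations 0.00061; rho = 0.98, p = 3e-05, adjusted 0.0018). Without +/L mouse 688 and +/+ mouse 11, the tumours farthest from the median, r was 0.96, and with slide means subtracted 0.96.

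Oas1a had r = 0.86 with Irf7 (rho = 0.83, permutation p = 0.0029 and 0.0043, adjusted 0.034 and 0.051), which was 0.75 without those 2 tumours. Oas3 (r = 0.86), Ifit2 (0.85), Bst2 (0.83), Gbp2 (0.83), Dhx58 (0.82) and Xaf1 (0.80) had adjusted permutation p-values of r between 0.034 and 0.047. Without those 2 tumours their r ran from 0.74 (Dhx58) to 0.82 (Bst2). With the slide means of the headers subtracted it ran from 0.65 (Dhx58) to 0.80 (Bst2). With the slide means of the description labels subtracted it ran from 0.45 (Dhx58) to 0.64 (Gbp2). By rho only Oasl2 had an adjusted p under 0.05. The median r of the members with Irf7 was 0.53, which was 0.42 without the 2 farthest tumours and 0.44 with slide means subtracted. Genotype means were also subtracted, which left a median of 0.59.

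Relations with Irf1 were examined in the same way. Of the 31 other members 20 had a positive r with it (47.9% of all genes) and 1 had an r above 0.75 (2.2% of all genes). Irgm1 had r = 0.75 (rho = 0.82, permutation p = 0.013 and 0.0058, adjusted 0.074 and 0.051), which was 0.84 without +/L mouse 20 and +/+ mouse 101, but 0.55 with slide means and 0.55 with genotype means subtracted. Trim25 had r = -0.74 (rho = -0.62, adjusted permutation p = 0.074 and 0.18), -0.72 without those tumours and -0.68 with slide means subtracted. The median r of the 30 members other than Irf7 with Irf1 was 0.25, and 0.02 without the 2 farthest tumours or -0.04 with slide means subtracted. The difference between the relations with Irf7 and with Irf1 was not tested.

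**Figure D5:**
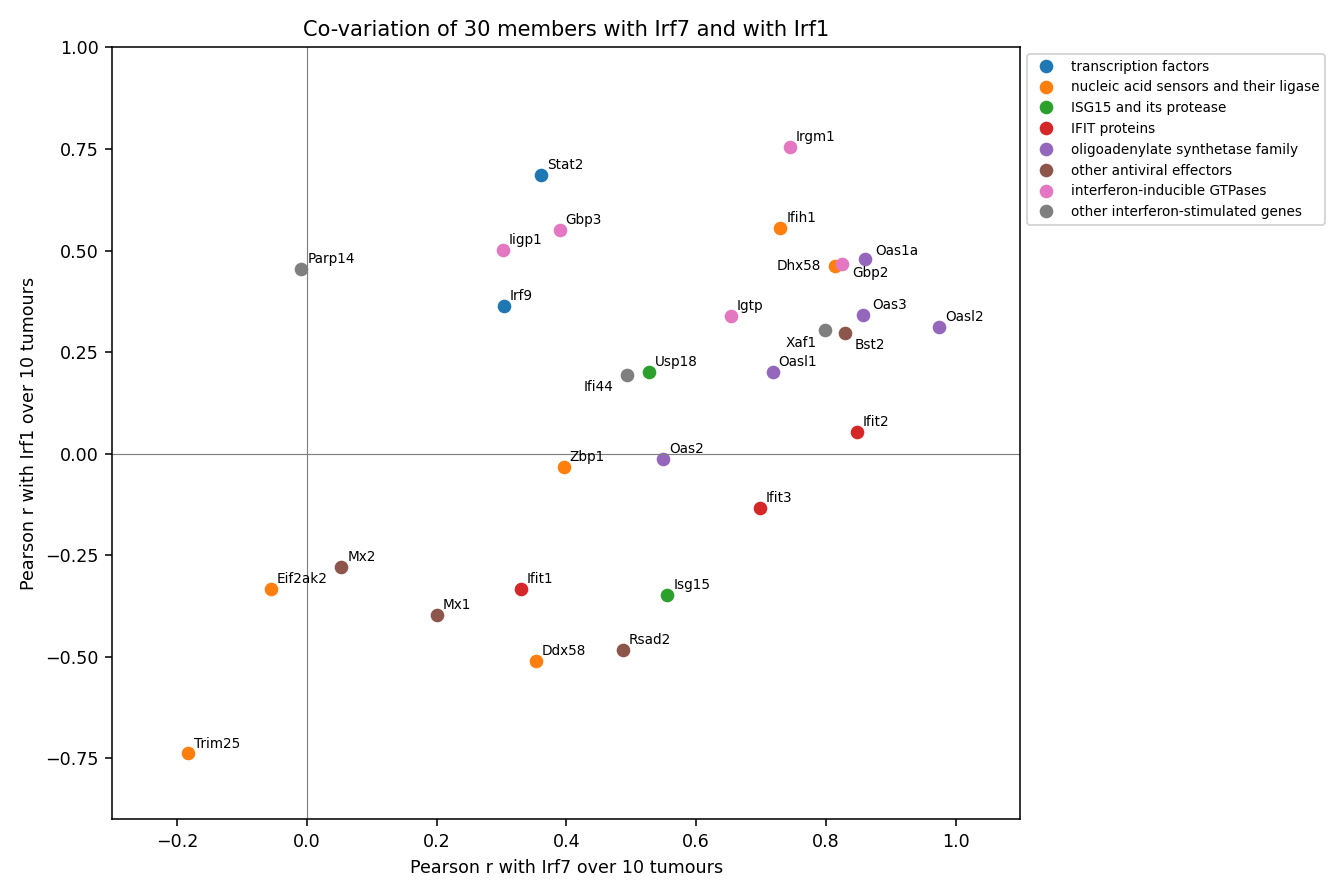
Pearson r over the 10 tumours of each of 30 members with Irf7 (x axis) and with Irf1 (y axis), coloured by role. Oasl2 lies farthest right (0.98), Irgm1 highest (0.75), and Trim25 lowest (-0.74) and farthest left (-0.18).

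Tumours in which the members were high or low on average were described by a score. The member score, the mean over the 32 genes of the log2 level minus the gene's mean, was highest in +/+ mouse 17 (0.51) and +/+ mouse 101 (0.41). It was lowest in +/+ mouse 11 (-0.65) and +/L mouse 688 (-0.54), and the other 6 tumours lay between -0.24 and 0.18. Mouse 101 held the highest value of 11 members and mouse 11 the lowest of 12. Counts of this kind were not made over all genes, so they cannot be called particular to the members. As deviations of opposite sign cancel in the score, their mean size was taken too: it was largest in mouse 11 (0.71) and next in +/L mouse 517 (0.57), whose score was -0.05 and which held the highest value of 5 members and the lowest of 5. The scores were -0.11 ± 0.29 in +/L and 0.11 ± 0.46 in +/+ (SD, n = 5 each), so the gap between genotypes was smaller than the spread within either. Within slides 1, 2 and 3 the score difference was -0.49, 0.50 and -0.14.

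The score of mouse 11 was not low in every group of genes: it was -1.31 for Isg15 and Usp18, -1.23 for the IFIT genes and -1.08 for the oligoadenylate synthetase family, but 0.05 for the GTPases. Mouse 688 had -1.06 for the oligoadenylate synthetase family and -0.44 for the GTPases. Marker scores of cell types were computed in the same way, and not all of them are given here. The B-cell score ran from -1.88 in +/L mouse 866 to 0.76 in +/L mouse 23. The T-cell score ran from -1.97 in +/L mouse 20 to 1.59 in +/+ mouse 19. For plasma cells the score ran from -1.53 in +/L mouse 866 to 2.09 in +/L mouse 20. The conventional dendritic cell score was -0.84 in mouse 11, 0.04 in mouse 101 and 0.54 in mouse 17. It was -0.08 in mouse 688 and lowest in +/L mouse 20 (-0.87). Mouse 11 also had the lowest endothelium and stroma score (-1.02) and the highest proliferation score (0.94). Mouse 11 had the lowest neutrophil score (-3.32, 7 of 8 markers measured), the lowest NK and cytotoxic cell score (-0.98, 8 of 8) and the lowest adipocyte score (-3.12, 6 of 7), while mouse 688, also low in the member score, had the highest adipocyte score (4.47). Mice 101 and 17, the highest in the member score, had adipocyte scores of -2.70 and -2.79 and neutrophil scores of -2.94 and 0.66. The plasmacytoid dendritic cell score, of cells that make type I interferon, was -0.72 in mouse 11 and 0.08 in mouse 688. It used 8 of the 9 listed markers, since the remaining one, Bst2, is itself a member and was left out. The +/L tumours spanned -1.28 to 2.98 in the neutrophil score and the +/+ tumours -3.32 to 1.42. For the macrophage score these spans were -2.29 to 1.56 and -0.79 to 0.82, and for the plasmacytoid dendritic cell score -0.77 to 0.73 and -0.72 to 0.78. Their part in the results was not tested.

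Other genes of the pathway, from lists of 113 genes of which 102 were kept, also had 0 passing in limma. Of the 102, 78 had a lower and 24 a higher mean in +/L, with a median of -0.31, and 12 lower and 1 higher had an unadjusted p under 0.05, where 51.9% of all genes were lower in mean and 5.44% lower and 3.14% higher had such a p. Of the ligands and receptors 8 of 13 were kept and all 8 were lower in mean. Interferon beta (Ifnb1) was not well above background on any array, and Ifng, interferon gamma, read 0.96 ± 0.92 in +/L and 1.75 ± 1.41 in +/+ (SD, n = 5 each; difference -0.78, limma adjusted p = 0.77; -0.37 without +/+ mouse 101). Among 12 JAK-STAT genes 11 were lower in mean, and among 18 sensors, adaptors and interferon-inducing factors 15 were. Of 25 gamma-induced GTPases, chemokines and antigen processing genes 21 were lower in mean and 7 of these had an unadjusted p under 0.05, a description with no test of the list. Of 39 other type I interferon-stimulated genes 23 were lower and 16 higher, with a median of -0.07.

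Of the genes of these lists with the lowest p, Trex1 encodes the DNase that degrades cytosolic DNA. It read 2.95, 2.71, 2.49, 2.95 and 1.71 in +/L mice 20, 866, 688, 23 and 517 and 3.57, 3.01, 4.29, 3.38 and 3.69 in +/+ mice 40, 11, 101, 17 and 19. Every +/+ tumour, mouse 11 included, lay above every +/L tumour, an arrangement found in the direction of lower +/L values in 1.26% of all genes. The difference was -1.02 ± 0.31 (SE, limma adjusted p = 0.54, exact two-sided permutation p = 0.0079, the smallest that 5 against 5 can give), and within the slides -0.75, -0.68 and -1.28. Ptpn6, the phosphatase SHP-1 that dampens JAK signalling, was apart in the same way and differed by -0.91 (limma adjusted p = 0.54). The mean over all Ptpn6 probes differed by -0.50. Irf8 differed by -0.64, and by -0.19 without +/L mouse 20, and the chemokines Cxcl9 and Cxcl10, which attract T cells, by -0.95 and -0.56 (limma adjusted p from 0.70 to 0.75). Without +/+ mouse 101 Cxcl10 differed by -0.21, and without +/L mouse 517 Cxcl9 by -0.51.

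Outside the list, the genes whose level over the 10 tumours was most like the member score were ranked by Pearson r. Oas1f came first (r = 0.91), and the first 10 also held Cln3 (0.88), Zdhhc14 (0.86), Haghl (0.85) and Rtp4 (0.85). Further down among them were 1700007K13Rik, Spry1, Mb21d2 and Pgghg, with r from 0.84 to 0.82. Of these, 1700007K13Rik was well above background on only 1 +/L and 3 +/+ arrays. All were picked for the highest r among all genes over 10 tumours, so the size of r is no test. Of the 10, 1 was on the pathway lists, and 3 of the first 30 were, where 102 of the 17782 genes tested were. The lists were made by hand and do not hold Oas1f, so these counts are not counts of all interferon-responsive genes. Oas1f read lowest in +/+ mouse 11 (2.55) and highest in +/+ mouse 101 (4.16), as Oas1a did, and its genotype difference was -0.52 (limma adjusted p = 0.68).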

How the data were processed

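Each of 10 tumours was hybridised to 1 Agilent array (Cy3). Per the file headers, the authors made each spot's intensity in version 10.5.1.1 of Agilent's Feature Extraction, with background and outlier flags. The deposited value table gives log2 expression for these arrays; its background method was not found in the sources used here.

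From the processed intensity, log2 values were taken relative to the 75th percentile of non-control spots of an array. A probe was kept if 3 or more arrays had it well above background, 121 probes flagged as outliers anywhere were dropped, and the brightest probe stood for a gene. A dim probe shrinks or blurs a difference, and scaling shifts all differences together. Of 41174 probes, 25052 were named through RefSeq accessions, 6327 by symbol and 1640 by synonym, 8104 kept the name in the files, and the 51 member probes kept theirs. Genotypes were compared with limma 3.58.1 (R 4.3.3; lmFit and eBayes, Benjamini-Hochberg over 17782 genes, threshold 0.05), over separate mice, and correlations with 100000 permutations. The procedure was tested on simulated data.

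Described with all tumours are the transcription factors and the members with the 3 lowest p, 3 widest and 3 narrowest ranges and 2 brightest probes, with Ifng, Ifnb1, Irf8, Cxcl9, Cxcl10 and the 3 pathway genes of lowest p, and the 10 non-members most like the member score; some genes that this rule names are not reported here. Isg15, Mx2 and the printed promoters and probes were chosen after their values were seen. The members and lists were chosen with earlier results of these data known. Alternatives changed scaling, background (normexp, offset 50), filter, probe rule, test, age, slide and arrays. Coordinates of probes are mm9; UTR and exon annotation was not used here.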

Additional observations from a re-analysis of the deposited data

Results flagged for a closer look

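In 7 members 1 tumour stood apart from the other 4 of its genotype by a gap of over 0.71 of the group's range (Dixon's limit for 5 samples). Chance does this in about 1 in 20 groups, and both genotypes of every member were looked at. The rule was applied to the members only, so no share over all genes can be set beside the 7. Of these tumours, +/+ mouse 11 was low in Irf7 (1.99, the other +/+ tumours from 3.25 to 3.69), Oas1a (1.89, others from 3.21 to 3.68), Oasl2 (1.36, others from 2.45 to 2.78) and Oas3 (-1.81, others from 0.31 to 0.80). These 4 genes moved together across the tumours, so they are not 4 separate observations, and this array is also 1 of the 2 whose sex-linked transcripts went against the label. The others were Eif2ak2 in +/+ mouse 17 (1.32, others from 0.17 to 0.46), Ifi44 in +/+ mouse 19 (1.69, others from 0.70 to 0.83) and Isg15 in +/L mouse 20 (3.38, others from 2.06 to 2.4).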

How the results depend on the processing

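Over 22 alternatives, 680 of 704 member differences kept their direction, 24 changed sign, and 18 of 32 members never did. The smallest adjusted p of a member in any of them was 0.20 in limma, so 0 members passed in each. Over all genes 1 passed with normexp and 1 on the deposited table (ENSMUST00000070897, chosen after its values were seen), and 0 to 3 when 1 tumour was left out. Members with an unadjusted p under 0.05 numbered 3, where 1525 of all 17782 genes had such a p. With age as a covariate they numbered 5 (1059 of all genes). Without mice 20 and 11 they numbered 10 (2522), and without mice 866 and 17 (added after seeing the data) 5 (1276). With the slide of the description labels as a block they numbered 4 (669), Ifih1 lower and Mx1, Mx2 and Zbp1 higher in +/L. In that fit 15 of 32 members had a difference above 0. With 1 tumour left out they numbered 1 to 9. The count was 5 without +/L mouse 20 (2315) and 9 without +/+ mouse 11 (1514). It was 1 without +/L mouse 517 (1134), +/+ mouse 101 (914) or +/+ mouse 19 (1160). The median r with Irf1 was -0.040 and -0.25 with the slide means of the headers and of the description labels subtracted. Sign changes with the description slide as a block, which takes 3 +/+ arrays that share a slide with no +/L array out of the comparison, were Ifit2 (0.16), Stat2 (0.17), Oas2 (0.62), Oas3 (0.13), Oasl1 (0.076), Usp18 (0.53), Xaf1 (0.20), Ifng (0.066) and Cxcl10 (0.15). With age, Ifit1 (-0.23), Eif2ak2 (-0.018) and Zbp1 (-0.057) turned. On the deposited table Oas2 (0.0033), Bst2 (0.0053) and Parp14 (0.043) turned, with normexp Parp14 (0.033), with the header slide Oas2 (0.021) and with probes averaged Rsad2 (0.12). Without mice 20 and 11, Isg15 (-0.17) and Ifit1 (-0.12) turned, and without mice 866 and 17 Rsad2 (0.17). With 1 tumour left out Ifit1 lay between -0.017 and 0.48, Oas2 between -0.50 and 0.43 and Rsad2 between -0.27 and 0.18. The cause of these changes was not tested. A spot near background, as in the second probes of Ifih1 and Mx1, limits what its probe can show.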
